A study of Sus scrofa with 20 samples.

Results

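The mitochondrial ribosomal proteins were represented by 59 genes, chosen as those whose symbol opens with MRPL or MRPS followed by a number. They had 78 probe sets among the 45922 porcine probe sets of the array, and the table named 13609 genes in all. Each gene was summarized by its brightest probe set, taken by the mean over all animals, whatever its difference between breeds. Muscle RNA (longissimus dorsi, adult pigs) of 10 Duroc and 10 PiNN animals had been hybridized to Porcine Snowball arrays from Affymetrix, 1 for each animal. PiNN are Pietrain pigs homozygous negative for malignant hyperthermia syndrome, the muscle disorder tied to the calcium release channel gene RYR1. Duroc, a breed known for intramuscular fat, was the other purebred group, and its RYR1 genotype was not used here. The labels place tissue sampling 24 h before slaughter, whereas the methods describe muscle taken afterwards for the bisulfite libraries, and the sources used here do not settle which of the 2 applies to the array RNA. The values are log2 probe set signals as deposited. A difference between breeds is given as Duroc minus PiNN on that scale, so a negative value means a higher signal in PiNN. In a muscle homogenate, fewer mitochondria-rich cells and less RNA per cell cannot be told apart.

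The mitochondrial ribosome translates the few messenger RNAs encoded by mitochondrial DNA, all of which specify subunits of the respiratory chain and the ATP synthase. All of its proteins are encoded in the nucleus, made in the cytosol and imported, and they assemble with mitochondrial ribosomal RNAs into a small subunit, which decodes the message, and a large subunit, which joins the amino acids. Many of the proteins descend from bacterial ribosomal proteins, and the others were added in mitochondria. Muscle depends on this system for its oxidative capacity.

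The median signal of an array lay between 4.61 and 4.73, and pairs of arrays correlated at 0.953 to 0.986. The labelled tissue carried its markers, with mean signals of 13.9 in both breeds for the skeletal actin ACTA1 and 13.5 in both for the muscle creatine kinase CKM. The 69 background probe sets of the array averaged 3.93. At their brightest probe set 3 of the 59 genes, MRPL9, MRPL44 and MRPL53, lay below that mean. Genes encoded by mitochondrial DNA had no named probe set and were not analysed here.

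Mitochondrial ribosomal protein genes tended to have the higher mean in PiNN muscle, by small amounts, and a few stood apart by breed. The mean was higher in PiNN for 41 genes (also 41 after quantile normalization or median centring) and in Duroc for 18, with a median difference of -0.13, against -0.02 over all porcine probe sets. Of all 45922 porcine probe sets, 25228 had the higher mean in PiNN, as had 7710 of 13609 named genes at their brightest probe set. The lean was not particular to the members, since 18 of 26 respiratory complex I genes and 12 of 17 genes that stand for mitochondrial mass shared it. Cytosolic ribosomal protein genes had 28 of 60 higher in PiNN. Among the 7 animals that also had a bisulfite library the balance of the members was the reverse, with 13 genes higher in PiNN and 46 in Duroc. Of the 59 genes, 6 passed the test (limma with Benjamini-Hochberg adjustment over all porcine probe sets), which is 10.2% beside 4.17% of all porcine probe sets. MRPL2, MRPS24, MRPS18A and MRPS18B were higher in PiNN, where 1.41% of all probe sets passed on that side. MRPS35 and MRPL1 were higher in Duroc, where 2.76% passed. Those shares by side count every probe set. Over all 13609 named genes at their brightest probe set, 6.39% passed, with 317 genes higher in PiNN and 553 in Duroc. The members had 4 and 2 of 59. An unadjusted p under 0.05 was reached by 23 genes, or 39% of the members, beside 22.2% of all named genes at their brightest probe set. By probe set the shares were 30.8% of those of the members and 17.3% of all. Counting every probe set in place of 1 per gene, 6 of 78 passed. Differences ranged from -0.66 for MRPL2 to 0.60 for MRPL1, and the largest fold was 1.58.

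**Figure D1:**
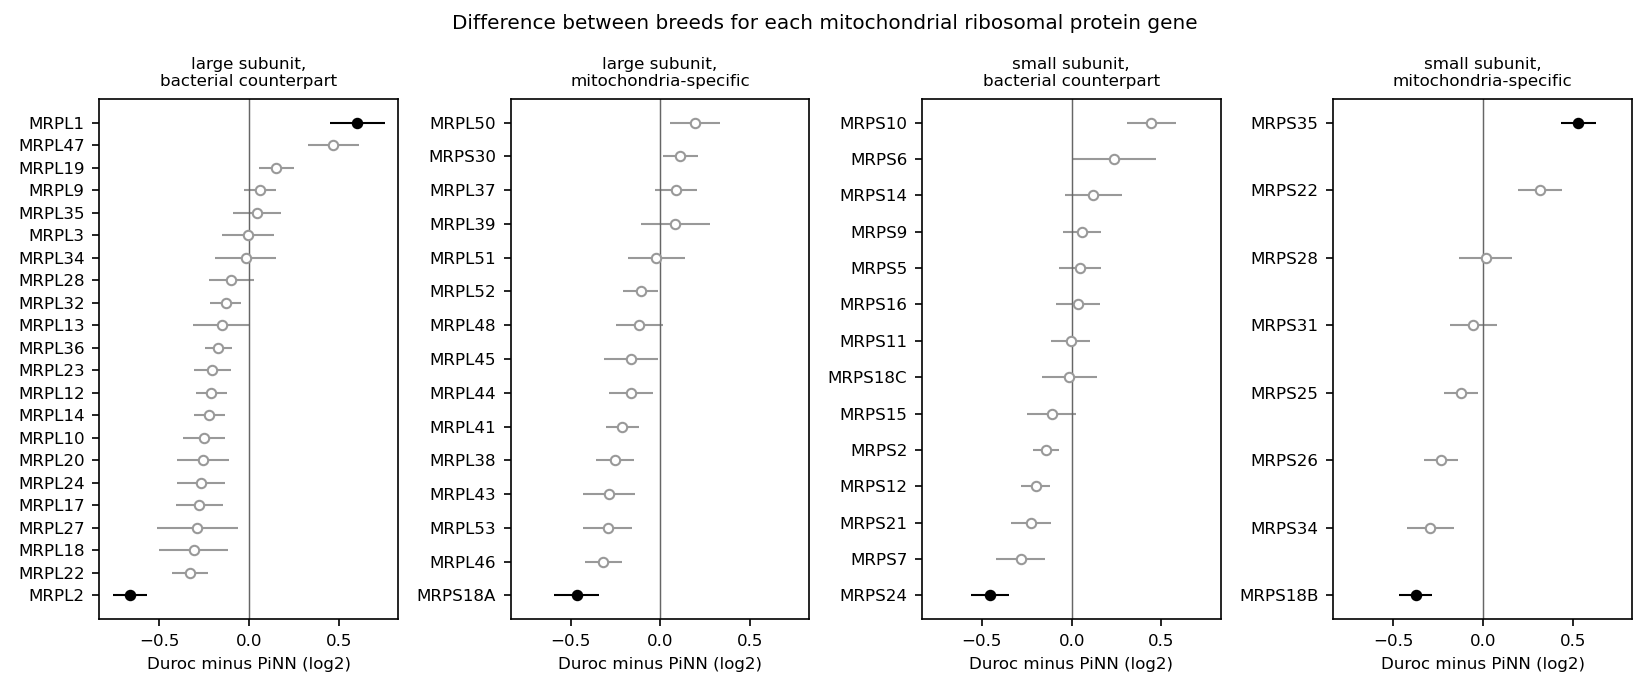
Difference between breeds (Duroc minus PiNN, log2) for each of the 59 genes at its brightest probe set, grouped by subunit and origin. Points are differences and bars are standard errors of the limma fit; filled points are the 6 genes that passed the adjusted test, 4 to the left of 0 (higher in PiNN) and 2 to the right (higher in Duroc).

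Among large subunit proteins with a bacterial counterpart, 22 of 29 listed genes were measured. MRPL2 was higher in PiNN, MRPL1 was higher in Duroc, and the other 20 did not pass, with a median of -0.19 over all 22. MRPL2 is the counterpart of bacterial L2, which lies close to the peptidyl transferase centre. It lies on chromosome 7 from 38116172 to 38121593 (RefSeq annotation of Sscrofa11.1, as for all positions given here). Its signal ran from 6.16 through a median of 6.73 to 7.08 in Duroc, and from 7.10 through 7.37 to 7.63 in PiNN. No Duroc animal reached the lowest PiNN animal. MRPL2 was the only member whose breeds did not overlap, and 0.122% of all porcine probe sets had this property. Duroc averaged 6.70 ± 0.24 and PiNN 7.36 ± 0.16 (SD, n = 10 each), a difference of -0.66 with SE 0.10 (limma, adjusted p = 0.000813).

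MRPL1, the counterpart of bacterial L1 in the mobile stalk beside the tRNA exit site, lies on chromosome 8 from 73305444 to 73423524. In Duroc its signal ran from 6.28 through a median of 7.24 to 7.47. In PiNN it ran from 6.15 through 6.47 to 7.24. The breeds overlapped at both ends, since Duroc animal 31 lay among the lowest PiNN animals and PiNN animal 62, at 7.24, lay among the middle Duroc animals, while 9 of 10 Duroc animals were above the PiNN median. The means were 7.17 ± 0.37 and 6.57 ± 0.36, a difference of 0.60 with SE 0.15 (limma, adjusted p = 0.0255). The call was lost without Duroc animal 46 (adjusted p = 0.0522), PiNN animal 22 (0.0507) or PiNN animal 36 (0.0509). Without Duroc animal 31 the difference was 0.70 (limma, adjusted p = 0.00296).

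MRPL47 and MRPL22 came closest to the threshold among the rest of these proteins. MRPL47, the counterpart of bacterial L29 near the exit of the peptide tunnel, averaged 6.97 ± 0.35 in Duroc and 6.50 ± 0.32 in PiNN (difference 0.47, SE 0.14, limma adjusted p = 0.0597). MRPL22, whose bacterial counterpart lines the tunnel, averaged 7.06 ± 0.16 and 7.39 ± 0.26 (difference -0.33, SE 0.10, limma adjusted p = 0.0600). MRPL12, the stalk protein that in bacteria helps recruit translation factors, differed by -0.21 (limma, adjusted p = 0.195).

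Of 23 listed large subunit proteins classed as specific to mitochondria, 15 were measured. MRPS18A was higher in PiNN, the other 14 did not pass, and the median was -0.16. MRPS18A keeps a small-subunit name but is placed in the large subunit, and it is 1 of 3 mammalian relatives of bacterial S18. It lies on chromosome 7 from 38641755 to 38657472. Its signal ran from 5.87 through a median of 6.27 to 6.59 in Duroc, and from 6.06 through 6.72 to 7.25 in PiNN. The overlap came from PiNN animals 49 and 35, at 6.06 and 6.46, and the PiNN median was above every Duroc animal. The means were 6.29 ± 0.24 and 6.75 ± 0.33, a difference of -0.47 with SE 0.13 (limma, adjusted p = 0.0342). MRPS18A passed in 11 of the 20 fits that each left out 1 animal. It did not pass without Duroc 24, 46, 58 or 59 or PiNN 19, 20, 21, 22 or 36, with adjusted p-values from 0.0509 to 0.0699.

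MRPL46, a large subunit protein of mitochondria that lacks a bacterial counterpart, averaged 7.08 ± 0.23 in Duroc and 7.40 ± 0.22 in PiNN (difference -0.32, SE 0.10, limma adjusted p = 0.0791). MRPL53, which ranked next in this group, differed by -0.29 (limma, adjusted p = 0.260), and its probe set was dimmer than the mean of the background probe sets, at 3.12.

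**Figure D2:**
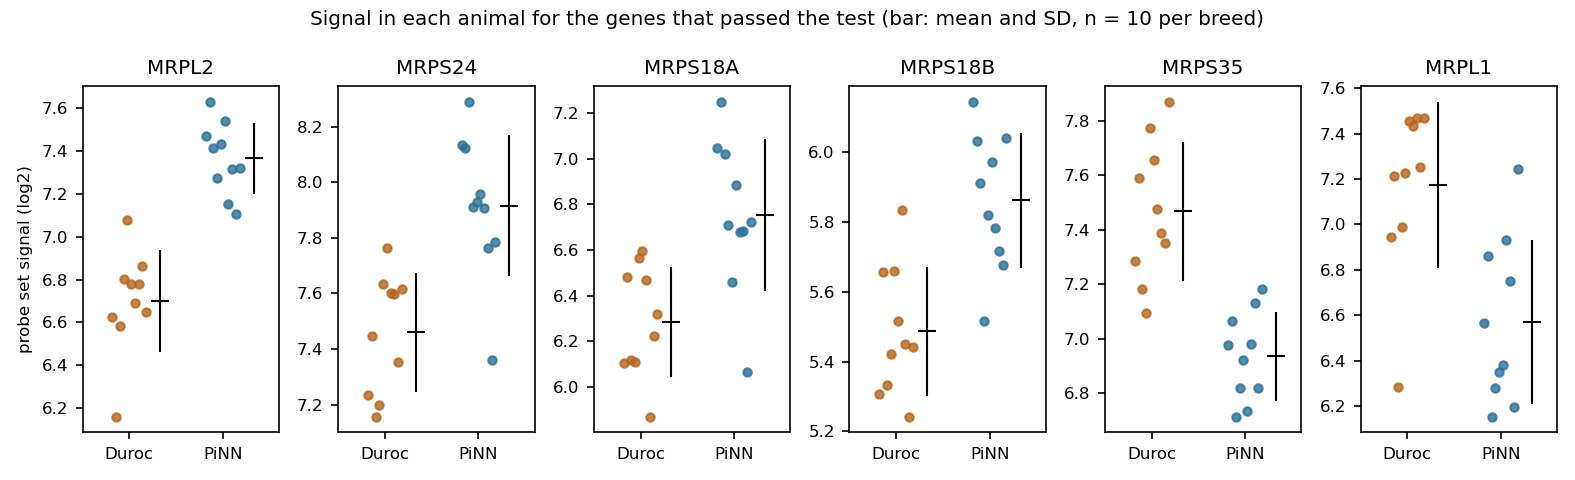
Probe set signal (log2) in each of the 10 Duroc and 10 PiNN animals for the 6 genes that passed the test. Points are animals and the black bar beside each breed is the mean with its SD; only MRPL2 shows no overlap, with Duroc up to 7.08 and PiNN from 7.10, and 1 Duroc animal at 6.28 stands apart in MRPL1.

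In the small subunit, 14 of 15 listed proteins with a bacterial counterpart were measured. MRPS24 was higher in PiNN, the other 13 did not pass, and the median was -0.01. MRPS24 is the counterpart of bacterial S3, at the channel where messenger RNA enters, and its gene lies on chromosome 18 from 48825747 to 48872294. Its signal ran from 7.16 through a median of 7.52 to 7.76 in Duroc, and from 7.36 through 7.92 to 8.29 in PiNN. PiNN animal 49, at 7.36, lay inside the Duroc range, and PiNN animal 47, at 7.76, was level with the highest Duroc animal. The means were 7.46 ± 0.21 and 7.92 ± 0.25, a difference of -0.46 with SE 0.11 (limma, adjusted p = 0.0160).

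The small subunit proteins with bacterial counterparts ranked next did not share a direction. MRPS10, which contacts ribosomal RNA in the head of the subunit, averaged 8.04 ± 0.28 in Duroc and 7.60 ± 0.36 in PiNN (difference 0.44, SE 0.14, limma adjusted p = 0.0671). MRPS7, whose bacterial counterpart starts assembly of the head, averaged 6.98 ± 0.32 and 7.27 ± 0.32 (difference -0.28, SE 0.14, limma adjusted p = 0.286). MRPS12, whose bacterial counterpart helps in decoding, differed by -0.20 (limma, adjusted p = 0.174).

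Of 15 listed small subunit proteins specific to mitochondria, 8 were measured, of which MRPS35 was higher in Duroc and MRPS18B was higher in PiNN, with a median of -0.09. The gene of MRPS35 lies on chromosome 5 from 45973698 to 46023003. Its signal ran from 7.09 through a median of 7.43 to 7.87 in Duroc, and from 6.71 through 6.95 to 7.18 in PiNN. All 10 Duroc animals were above the PiNN median, and the overlap was confined to the lowest Duroc and highest PiNN animals. The means were 7.47 ± 0.25 and 6.93 ± 0.16, a difference of 0.53 with SE 0.10 (limma, adjusted p = 0.00429). MRPS22, which is needed for a stable small subunit in human cells, averaged 7.23 ± 0.31 and 6.91 ± 0.27 (difference 0.32, SE 0.12, limma adjusted p = 0.166).

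MRPS18B, another relative of bacterial S18, lies on chromosome 7 from 23166314 to 23172718. In Duroc its signal ran from 5.24 through a median of 5.45 to 5.84. In PiNN it ran from 5.52 through 5.87 to 6.15. The ranges overlapped, although the PiNN median exceeded every Duroc value. The means were 5.49 ± 0.18 and 5.86 ± 0.19, a difference of -0.38 with SE 0.09 (limma, adjusted p = 0.0199). A dimmer probe set of MRPS18B, below the background mean, differed by -0.05. MRPS18C, the relative that is closest to a bacterial small subunit S18, differed by -0.01 (limma, adjusted p = 0.981). These 3 genes are related in sequence, and cross-hybridization between their probe sets was not tested.

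The other 5 genes that passed had 1 probe set each, so no second probe set could be set beside them. Among all members, 15 genes had more than 1 probe set, and in 10 of them at least 2 probe sets were above the background mean. Those probe sets pointed the same way in 6 of the 10 genes. MRPS10 was among them, with differences of 0.26 and 0.44 for the probe sets above background. MRPL13, MRPL23, MRPL27 and MRPL37 had probe sets of opposite sign. In MRPL37 the 4 probe sets ranged from -0.21 to 0.13.

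Of the 6 genes that passed, MRPL2, MRPS18A and MRPS18B lie on chromosome 7. MRPL2 and MRPS18A are 520161 bases apart. MRPL14, 467576 bases beyond MRPS18A, also had the higher mean in PiNN but did not pass (difference -0.22, limma adjusted p = 0.172). MRPS10, 786925 bases on the other side of MRPL2, had the higher mean in Duroc (0.44). The run of neighbouring members therefore held both signs. On chromosome 1, MRPS11 and MRPL46 are separated by 38 bases, and their differences were -0.01 and -0.32.

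Within a breed, most of these genes moved together from animal to animal. With each gene centred on its breed means, the median Pearson correlation over the 1711 pairs of members was 0.478 across 20 arrays, and 86.8% of pairs were above 0. The same median was 0.002 for named genes above background. It was 0.656 for 60 cytosolic ribosomal protein genes and 0.745 for 26 genes of respiratory complex I. These correlations share the arrays and their preparation and carry no test. When the array background was removed as well, a choice made after seeing the data, the medians were 0.320 for the members, 0.525 for the cytosolic ribosomal proteins, 0.618 for complex I and 0.005 for named genes.

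Both subunits took part in this covariation. MRPL51, MRPL27 and MRPL43 followed the mean of the other members most closely, with r = 0.954, 0.933 and 0.928 over the 20 arrays, and 44 of 59 members had r over 0.5. The closest pairs were MRPL17 with MRPL48 (r = 0.947), both of the large subunit, and MRPL27 with MRPL43 (r = 0.941). MRPL20 of the large and MRPS18C of the small subunit reached r = 0.918. The members at the other end were MRPL12, MRPL44, MRPL41 and MRPL9, with r from -0.05 to -0.18, and of these MRPL44 and MRPL9 were the genes dimmer than background. MRPL47, MRPL1 and MRPS35, whose mean differences were the 3 largest on the Duroc side, had pair correlations of 0.71 to 0.82 with each other within breeds. For MRPS10 and MRPS22, next on that side, the pairs with these genes and with each other ran from 0.42 to 0.82. After centring on breed, all of these genes were negatively correlated with the array background, from -0.61 for MRPS35 to -0.79 for MRPS22.

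**Figure D3:**
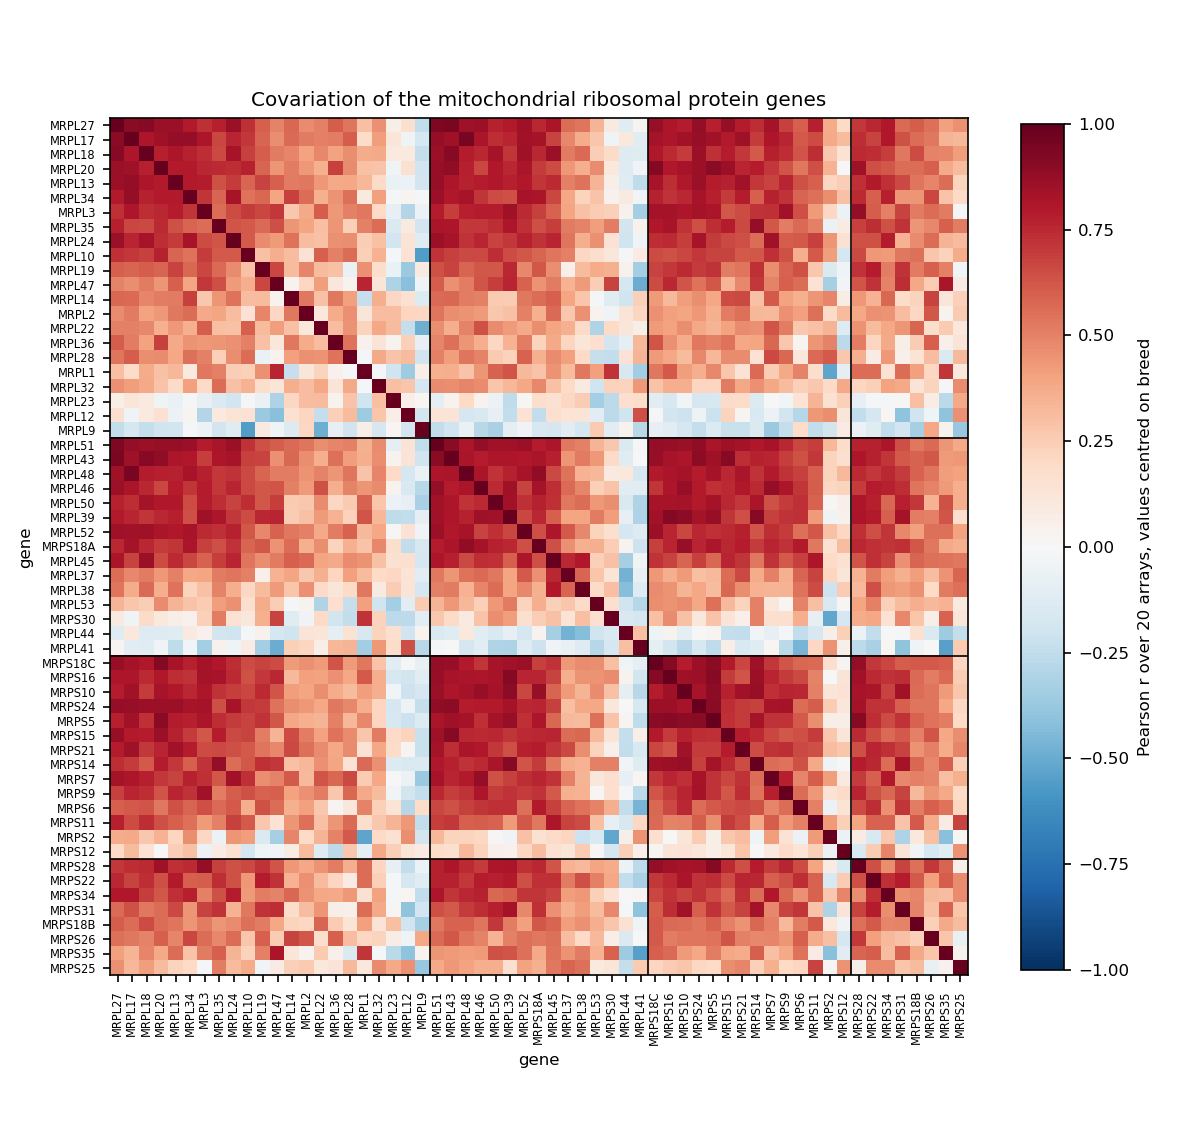
Pearson correlation over 20 arrays between each pair of the 59 genes after centring on breed means; rows and columns are genes, ordered within 4 blocks by subunit and origin as separated by black lines. Red dominates within and between all 4 blocks (median r 0.478), and pale or blue strips belong to a few genes such as MRPL9, MRPL12, MRPL41 and MRPL44.

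The level of the members as a whole was summarized for each animal as the median deviation of the 59 genes from their own means. It ran from -0.33 through a median of -0.11 to 0.22 in Duroc, and from -0.34 through 0.03 to 0.38 in PiNN. The breeds overlapped over most of this range. The highest animals were PiNN 20 (0.38) and PiNN 19 (0.28), and the lowest were PiNN 49 (-0.34) and Duroc 24 and 31 (both -0.33). In PiNN animal 20, 56 of the 59 genes were above their own mean, and in Duroc animal 31 only 6 were.

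This level moved with the array background. Within Duroc the correlation between them was r = -0.846 (Spearman rho = -0.891, n = 10), and r = -0.716 without animals 31 and 24. Within PiNN it was r = -0.656 (rho = -0.588, n = 10), and r = -0.656 without animals 49 and 36. The 4 animals with the lowest member levels had backgrounds of 4.05 to 4.21, whereas PiNN animal 36 had a background of 4.09 and a member level of 0.20. The background ran from 3.78 to 4.10 in Duroc and from 3.83 to 4.21 in PiNN. Of the 59 genes, 52 were negatively correlated with it after centring on breed, and the share over all porcine probe sets is not given here. Other lists were also lowest in PiNN animal 49, with median deviations of -0.74 for complex I, -0.45 for cytosolic ribosomal proteins and -0.41 for mitochondrial mass. In PiNN animal 36 those lists stood at 0.17, 0.15 and 0.04. With the background as a covariate, 14 members passed, or 23.7%, beside 4.73% of all porcine probe sets in that fit. They were the same 6 genes and MRPL17, MRPL18, MRPL20, MRPL22, MRPL24, MRPL27, MRPL43 and MRPL46, all 8 higher in PiNN. The member median was then -0.19. For named genes at their brightest probe set, the share passing in that fit is not given here. The part of the array background in these differences was not tested further.

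**Figure D4:**
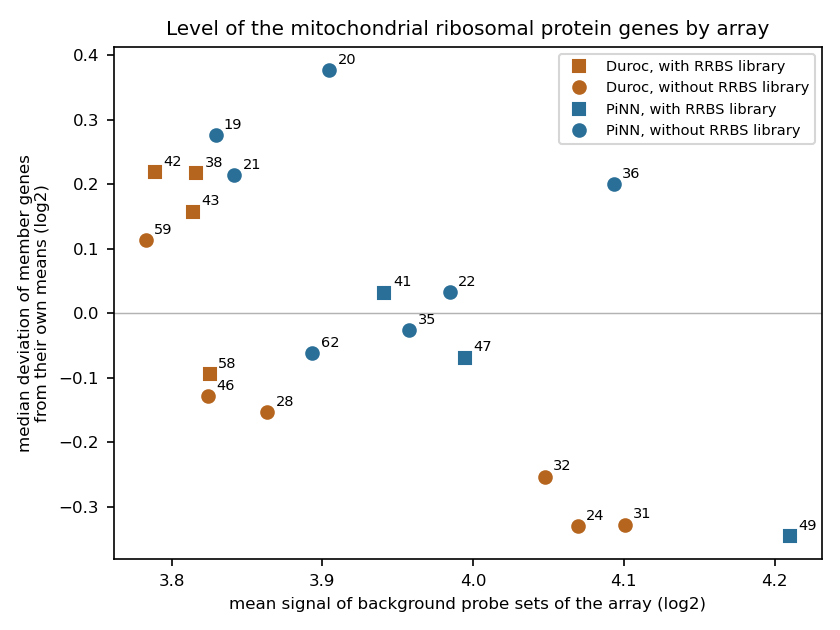
Median deviation of the 59 genes from their own means (log2, y axis) against the mean signal of the background probe sets of the same array (log2, x axis), with 1 point per animal, labelled by animal number. Duroc lies between -0.33 and 0.22 and PiNN between -0.34 and 0.38; squares are animals that also had a bisulfite library, and levels are lower on most arrays with a high background, PiNN animal 36 being an exception.

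The direction over all members differed between subsets of animals. Matched by animal number, reduced representation bisulfite (RRBS) libraries existed for 4 Duroc and 3 PiNN animals on the arrays. The paper counts more Duroc animals as shared, but not every Duroc number of its libraries occurs among the array labels. Among these 7 animals none of the members passed (lowest limma adjusted p = 0.0832, beside 0.847% of all probe sets passing), 46 of 59 had the higher mean in Duroc, and the median was 0.24. Among the other 6 Duroc and 7 PiNN animals, 7 members passed, all higher in PiNN, which is 11.9% beside 1.27% of all probe sets, and the median was -0.28. For named genes at their brightest probe set, the share in these fits is not given here. MRPL2, MRPS24, MRPS18A and MRPS18B were among the 7, joined by MRPL18, MRPL38 and MRPL46. MRPS35 (limma, adjusted p = 0.0722) and MRPL1 (limma, adjusted p = 0.229) did not pass among those animals. Array backgrounds of the first subset were 3.79 to 3.83 in Duroc and 3.94 to 4.21 in PiNN, whereas those of the second overlapped (3.78 to 4.10 and 3.83 to 4.09). All 6 genes that passed over the 20 animals kept the sign of their difference in both subsets. They had been chosen on these same animals, so the shared sign is no independent support. In the first subset the difference was only -0.01 for MRPS18A (SE 0.19), -0.09 for MRPS24 (SE 0.18) and -0.16 for MRPS18B (SE 0.17). Over the members 28 had the opposite sign in the first subset and 10 in the second. The difference between subsets was not tested.

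**Figure D5:**
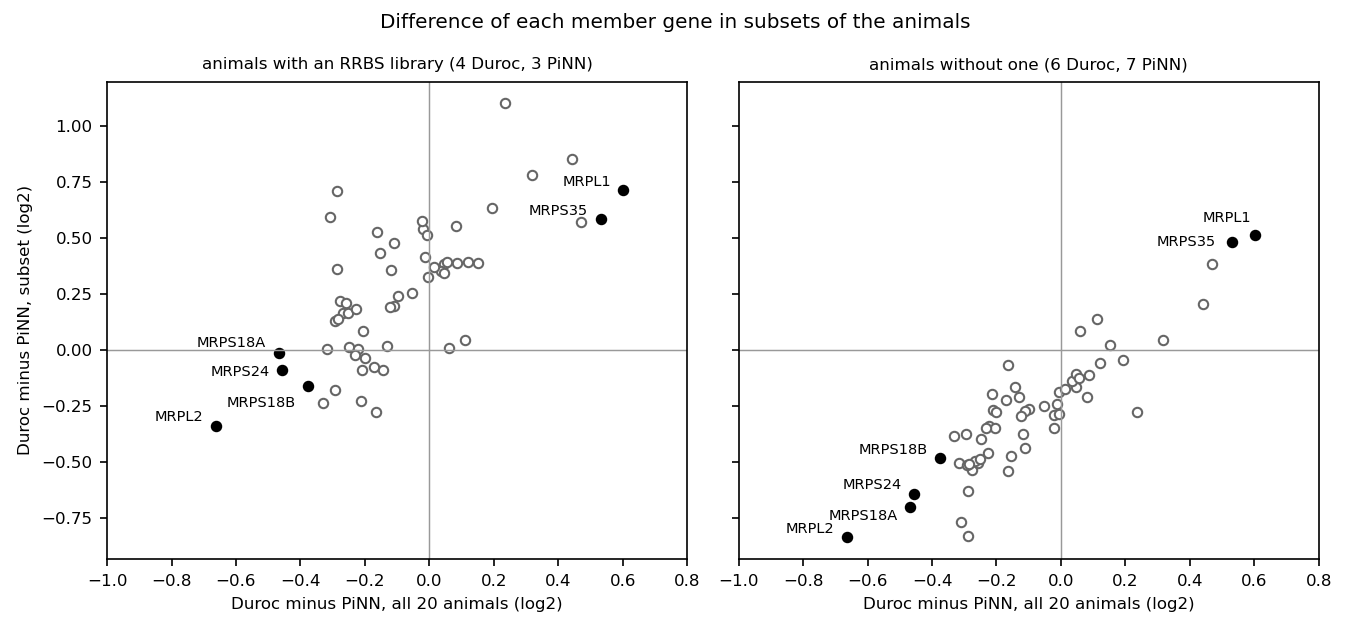
Difference between breeds (Duroc minus PiNN, log2) of each of the 59 genes in a subset of animals (y axis) against all 20 animals (x axis); the left panel shows the 4 Duroc and 3 PiNN animals with an RRBS library and the right panel the other 6 and 7. Filled, named points are the 6 genes that passed over all animals. They keep their sign in both panels, but were chosen on these same animals. Most open points lie above 0 on the left and below 0 on the right.

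Genes that work with the mitochondrial ribosome were set beside it from fixed lists. Of 5 measured ribosome subunits that go by other names, none passed, and DAP3, the GTP-binding protein of the small subunit, differed by 0.04 (limma, adjusted p = 0.886). Of 11 measured translation factors, 1 passed. MTRF1, a peptide chain release factor, averaged 6.20 ± 0.25 in Duroc against 5.62 ± 0.25 in PiNN (difference 0.58, SE 0.11, limma adjusted p = 0.00533). The elongation factor TUFM did not pass (difference -0.26, limma adjusted p = 0.207). Of 10 ribosome assembly genes and 13 aminoacyl-tRNA synthetase genes, none passed.

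Among 14 genes of mitochondrial transcription and RNA processing, 2 passed, both higher in Duroc. LRPPRC, which stabilizes mitochondrial messenger RNAs, averaged 8.61 ± 0.28 in Duroc against 8.12 ± 0.29 in PiNN (difference 0.49, SE 0.12, limma adjusted p = 0.0225). FASTKD1, an RNA-binding protein of mitochondria, averaged 6.23 ± 0.29 and 5.71 ± 0.24, a difference of 0.53 with SE 0.12 (limma, adjusted p = 0.0117). The mitochondrial DNA packaging and transcription factor TFAM differed by 0.29 (limma, adjusted p = 0.363).

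Of 17 genes that stand for mitochondrial mass, only OPA1 passed. This GTPase, which fuses inner membranes, was higher in Duroc, at 7.60 ± 0.18 against 7.11 ± 0.30 (difference 0.48, SE 0.11, limma adjusted p = 0.0144). Citrate synthase (CS) differed by 0.04 (limma, adjusted p = 0.885). Among 13 regulators of mitochondrial biogenesis none passed, and the median difference was 0.20, with 8 higher in Duroc and 5 in PiNN. An unadjusted p under 0.05 was reached by 9, or 69.2%, beside 22.2% of all named genes at their brightest probe set. Of these 9, NRF1 (-0.24, limma adjusted p = 0.0513), PPARGC1B (-0.41) and TFEB (-0.19) had the higher mean in PiNN and the rest in Duroc. The coactivator PPARGC1A, on the Duroc side, differed by 0.56 (limma, adjusted p = 0.283). Cytosolic ribosomal protein genes had 1 of 60 passing and a median of 0.03, and complex I genes had 1 of 26 and a median of -0.13.

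Markers of fibre and cell types were set beside the members. All 11 slow fibre markers had the higher mean in Duroc and none passed, and the myosin MYH7 differed by 0.26 (limma, adjusted p = 0.385). Their median deviation ran from -0.48 to 0.70 in Duroc and from -1.37 to 0.46 in PiNN. The lowest was PiNN animal 35, whose member level was -0.03. Of 12 measured fast fibre markers, 9 had the higher mean in PiNN and 3 in Duroc, none passed, and the median difference was -0.09. Median deviations of the fast list were -0.22 to 0.09 in Duroc and -0.22 to 0.17 in PiNN. All 4 measured red blood cell markers had the higher mean in PiNN, but SLC4A1 by only -0.01 and AHSP by -0.04, at a signal of 2.35 below the background mean. The median deviation of these markers was -0.52 to 0.15 in Duroc and -0.13 to 0.46 in PiNN. The haem synthesis gene ALAS2 passed (difference -0.51, limma adjusted p = 0.0327) at a mean signal of 4.16, near the background mean of 3.93. HBB differed by -1.16 and did not pass (limma, adjusted p = 0.0527). Of the leukocyte, endothelial, fibroblast, adipocyte, and satellite and nerve cell markers none passed. Leukocyte markers had the higher mean in PiNN for 7 of 8 genes, with median deviations of -0.35 to 0.10 in Duroc and -0.05 to 0.32 in PiNN. The part of fibre or cell composition in the member differences was not tested.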

How the data were processed

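The deposited values were log2 probe set signals. The submitters' processing notes name GCOS version 1.1.1. How signals were summarized, and whether and how arrays were normalized, is not given in the sources used here. All 20 arrays were kept. Of 47845 rows, the 45922 porcine probe sets were tested and 1923 control and other-species ones were not. Symbols came from the platform annotation, with 1 symbol for 26058 porcine probe sets, none for 19864 and several for 0. Positions were taken from RefSeq for Sscrofa 11.1.

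The linear model held breed alone and was fitted with lmFit and eBayes of limma (version 3.58.1, R 4.3.3). Testing was two-sided, with Benjamini-Hochberg adjustment of p-values across the porcine probe sets (threshold 0.05). Each animal is 1 replicate, so errors cover the spread between animals, and the number of arrays limits the precision. The procedure was tested on simulated data. Named genes were the members that passed, the 3 members with the largest difference in each of 4 role groups, up to 4 passing genes of each other list outside the cell type markers, and MYH7, CS, TFAM, PPARGC1A, TUFM and DAP3. Other genes with values (MRPL12, MRPL14, MRPL22, MRPL37, MRPS11, MRPS12, MRPS18C, ALAS2, HBB, SLC4A1 and AHSP, the array-level examples and the members with the closest or weakest correlations) were chosen after their values were seen. The same holds for NRF1, PPARGC1B and TFEB. The members and lists were chosen with earlier results of these data known. Alternatives were the ANOVA of the methods, q-values, brighter probe sets, quantile normalization, median centring, array weights, the array background as covariate, robust fitting with a variance trend, subsets of animals by RRBS library, and leaving out animals. Promoter motifs were not counted and sequences were not used here.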

Additional observations from a re-analysis of the deposited data

Results flagged for a closer look

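Of 46 groups of 10 animals, 2 held an animal far from the others, and chance alone marks about 1 group in 20. MRPL1 in Duroc animal 31 was 6.28, whereas the next animal was at 6.95 and the highest at 7.47, so the gap was 0.558 of the range. PPARGC1A in PiNN animal 49 was 4.03, whereas the next animal was at 5.34 and the highest at 6.69, a gap of 0.491 of the range. The array of Duroc animal 31 had the highest background of its breed (4.10), and that of PiNN animal 49 the highest of all 20 (4.21). The part of the background in these values was not tested.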

How the results depend on the processing

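The count of 6 member genes was within 1.5 times under the ANOVA of the methods (5), q-values (8), brighter probe sets alone (9 of 56), median centring (5), a variance trend with robust fitting (6), without PiNN animals 49 and 62 (8), among animals without an RRBS library (7) and without any 1 animal (4 to 8). It was 10 after quantile normalization, 10 with array weights, 14 with the array background as covariate and 0 among animals with an RRBS library. By probe set these were 10, 11, 14 and 0. The share of all tested probe sets that passed moved too, from 4.17% in the main fit. It was 4.78% after quantile normalization, 6.83% with array weights, 4.73% with the background as covariate and 0.847% with an RRBS library. The ANOVA gave 3.33%, q-values 5.17%, brighter probe sets 7.98%, median centring 3.26% and the variance trend with robust fitting 4.09%. Leaving out PiNN animals 49 and 62 gave 5.56%, animals without an RRBS library 1.27%, and leaving out any 1 animal 2.56% to 5.42%. MRPL2, MRPS35, MRPS24 and MRPS18B passed in all 20 fits that left out 1 animal. Of these, MRPS35 did not pass in either subset by RRBS library. MRPS18A did not pass by the ANOVA (adjusted p = 0.0552) or median centring (0.0512). The member median ran from -0.16 to -0.09 without any 1 animal, and was 0.24 among animals with an RRBS library. For 12 named member genes, 107 of 131 values kept direction and side of the threshold, 10 lost the call, 12 gained one and 2 turned sign. For 10 other named genes, 99 of 110 did, 7 lost the call and 4 turned. With an RRBS library, MRPL46 turned to 0.0062, MRPS7 to 0.14 and TUFM to 0.033. Without one, CS turned to -0.034 and DAP3 to -0.10. DAP3 was -0.036 with the background as covariate, and CS ran from -0.0030 (without PiNN animal 49) to 0.061 without any 1 animal. The causes were not tested. Probe sets below the background mean carry little signal. No paired analysis was possible because the breeds share no animal numbers.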
